A study of Mus musculus with 24 samples.

Results

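The endoplasmic reticulum (ER) chaperones and unfolded protein response genes described here are 37 genes chosen by symbol, of 54532 in the table. They are grouped here by what they encode: 12 chaperones and glycoprotein folding factors, 8 disulfide and proline isomerases and oxidases, 9 components of ER-associated degradation, 3 stress sensors with the transcription factor Xbp1, and 4 subunits of the translocon and signal peptidase. All 37 were found, and all 37 were among the 12061 genes kept for testing, at a level of at least 1 FPKM (fragments scaled by gene length and library size) in all 24 libraries. They were abundant transcripts: the median of their mean levels was 64.04 FPKM, in contrast to 6.604 FPKM over the genes tested.

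All libraries were of HY19636 cells, a line of mouse pancreatic cancer (PDAC, ductal adenocarcinoma). Cells were either WT, with Phgdh intact, or KO, with Phgdh knocked out; its product begins the synthesis of serine from a glycolytic intermediate. Each genotype was kept in medium that held serine and glycine (replete medium) or lacked both (SG-free medium), and either alone (monoculture) or with hepatocytes (coculture). Every combination was sequenced, in 8 groups of 3 libraries, and each mean is over n = 3. All groups are of 1 cancer line; the sources used here do not give how cancer cells and hepatocytes were parted before extraction, or whether the KO cells are 1 clone. Anything particular to the KO cells other than the loss of Phgdh cannot be told apart from it.

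Proteins that enter the ER are threaded through the Sec61 channel, folded by Hspa5 (BiP) and its cochaperones, joined by disulfide bonds and, when glycosylated, cycled through calnexin and calreticulin. Proteins that fail to fold are handed to a ubiquitin ligase complex and sent back to the cytosol for destruction. When folding demand exceeds capacity, Ire1 (Ern1), Perk (Eif2ak3) and Atf6 signal to the nucleus; Ire1 splices Xbp1 mRNA, Atf6 is cut to free a transcription factor, and Perk slows translation and raises Atf4. Gene-level FPKM does not separate the spliced form of Xbp1 mRNA from the unspliced form.

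Many of these genes carry the ER stress response element (ERSE) ahead of their start site, to which Atf6 and Xbp1 can bind together with NF-Y. The windows searched ran from 250 bases before to 50 bases after each start in RefSeq's promoter table (GRCm38.p6), and 32 of the 37 members had one. ERSE, spelled CCAAT, 9 bases and CCACG and read on both strands, was found in 9 of the 32 members (28.1%), against 39 of all 32851 windows (0.119%) and 0.12% of the windows of tested genes. ERSE-II, spelled ATTGG, 1 base and CCACG, was found in 2 members (6.25%). It was in 0.0365% of all windows and in 0.0832% of the windows of tested genes. All matches to ERSE and ERSE-II among the members are printed here, each 5′ to 3′ on its gene's strand. Both boxes of the motif are in capitals, and they read CGTGG and ATTGG where the match lies on the other strand:
Hspa5, ERSE (chr2:34772013-34772055, plus strand): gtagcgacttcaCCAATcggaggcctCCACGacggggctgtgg
Hsp90b1 far element, ERSE (chr10:86705626-86705668, minus strand): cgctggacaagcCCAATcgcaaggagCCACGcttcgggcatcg
Hsp90b1 near element, ERSE (chr10:86705521-86705563, minus strand): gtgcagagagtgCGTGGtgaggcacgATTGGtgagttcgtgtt
Dnajb11, ERSE-II (chr16:22857840-22857862, plus strand): tccccggcggcgATTGGcCCACG
Dnajc3, ERSE (chr14:118937815-118937857, plus strand): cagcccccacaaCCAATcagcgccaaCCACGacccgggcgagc
Creld2, ERSE (chr15:88819508-88819550, plus strand): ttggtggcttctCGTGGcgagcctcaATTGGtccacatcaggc
Calr, ERSE (chr8:84847063-84847105, minus strand): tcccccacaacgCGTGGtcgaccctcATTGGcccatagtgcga
Canx, ERSE (chr11:50325788-50325830, minus strand): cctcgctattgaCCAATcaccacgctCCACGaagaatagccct
Pdia6, ERSE (chr12:17266479-17266521, plus strand): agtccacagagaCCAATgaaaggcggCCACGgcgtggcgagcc
Ero1lb, ERSE (chr13:12565670-12565712, plus strand): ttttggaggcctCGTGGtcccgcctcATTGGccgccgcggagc
Herpud1, ERSE-II (chr8:94386365-94386399, plus strand): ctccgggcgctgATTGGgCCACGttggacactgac
Syvn1, ERSE (chr19:6046520-6046562, plus strand): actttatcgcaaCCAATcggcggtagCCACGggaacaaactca

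The Hspa5 element lies 65 to 47 bases before the start site, and the Dnajb11 element lies 8 to 18 bases after it. The single box CCACG, which is contained in both elements, was in 27 of the 32 members (84.4%). It was in 32.8% of all windows and in 48.6% of the windows of tested genes. The core of the unfolded protein response element, TGACGTGG, was in 0 of the 32 members. It was in 0.676% of all windows and in 1.11% of the windows of tested genes. Hyou1, Manf, Derl1, Atf6 and Sec61a1 were not matched to a window. A match describes letters in these windows and is not a measured binding site.

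Totals of reads assigned to genes ran from 15740081 to 23479425 per library, and Pearson correlations between replicates, across genes on the log2 scale, from 0.9666 to 0.993. Phgdh, the edited gene, was at 903.1 to 933.9 FPKM in the WT monocultures in replete medium and at 372.1 to 548.4 FPKM in the corresponding KO libraries, so its transcript was lower but present. In monocultures in SG-free medium it was at 788.8 to 818 FPKM in WT and 616 to 737.4 FPKM in KO libraries (log2 difference −0.21, limma adjusted p = 0.1145), which did not pass the test. Summed over 20 hepatocyte markers the level was 0.08173 to 1.164 FPKM in every library, cocultures included, 12 of the 20 were at 0 throughout, and Alb reached at most 0.1312 FPKM. Of the ductal epithelial markers Krt18 was at 658.7 to 2554 FPKM and Krt8 at 202.7 to 1481 FPKM, whereas Epcam reached at most 1.298 FPKM and Cldn4 at most 0.03452 FPKM. The 9 ductal markers summed to 1777 ± 131.8 FPKM in the replete and 4509 ± 101.1 FPKM in the SG-free KO monocultures (SD), with 5 of the 7 tested called higher and 0 lower, and the macrophage marker Cd68 was at 3.437 ± 0.6532 and 0.8449 ± 0.303 FPKM. These markers moved in the same comparison as the members, and their part in the members' change was not tested. Manf, Syvn1, Derl2, Spcs1 and Hsp90b1 overlap other expressed genes, and since strand use in counting is not known their levels are uncertain. In bulk RNA, a lower share of cells of one state and less transcript per cell cannot be told apart.

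The KO libraries spread more than the WT ones in 2 groups, and the members differed within both in a similar way. Replicate 1 of the KO monocultures in replete medium, set against the mean of replicates 2 and 3, and replicate 2 of the SG-free KO cocultures, set against replicate 1, deviated with the same sign in 34 of 37 members (Pearson r = 0.9384 across members, and 0.658 across all 12061 genes, as a description of these libraries). Sec61b deviated by −1.16 and −0.97 on the log2 scale, Fkbp2 by −0.83 and −0.80, and Dnajb9 by 0.61 and 0.56. In the SG-free KO cocultures replicates 1 and 2 were the farthest apart over the members (root mean square difference 0.3239 on the log2 scale) and replicate 3 lay nearer to replicate 2 (0.1388) than to replicate 1 (0.2204), so no single library of that group is named as the odd one. Spearman correlations of these deviations with gene length across the members were 0.31 and 0.36. Without replicate 1 of the first group and replicate 2 of the second, 33 members were called for withdrawal in KO monocultures, 28 lower and 5 higher, and 34 for coculture in SG-free KO cells, 26 higher and 8 lower. Without replicate 1 of both groups the counts were again 33, 28 lower and 5 higher, and 32, 24 higher and 8 lower.

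The change from replete to SG-free medium, called withdrawal here, in KO monocultures lowered most of the set. Differences are on the log2(FPKM + 1) scale, ± the standard error, and a gene was called when limma's Benjamini-Hochberg adjusted p over the 12061 genes was under 0.05. Of the 37 members 29 fell and 5 rose, 34 in all, where 70.8% of all tested genes were called, 34.5% lower and 36.2% higher. The median change of the members was −0.62, and that of all tested genes 0.0042. In WT monocultures, by the same limma test, 0 of 37 members were called (1.63% of all genes, 1.37% higher and 0.257% lower, and 1430 genes at an unadjusted p under 0.05), and their changes ran from −0.24 to 0.19. The difference between the genotypes in this response was itself called for 32 members, 27 of them negative and 5 positive, where the background was 61.2% (29.8% negative and 31.4% positive). With voom on the recovered reads 34 members were called in KO monocultures, and 31 of the 34 calls were kept in every alternative setting.

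**Figure D1:**
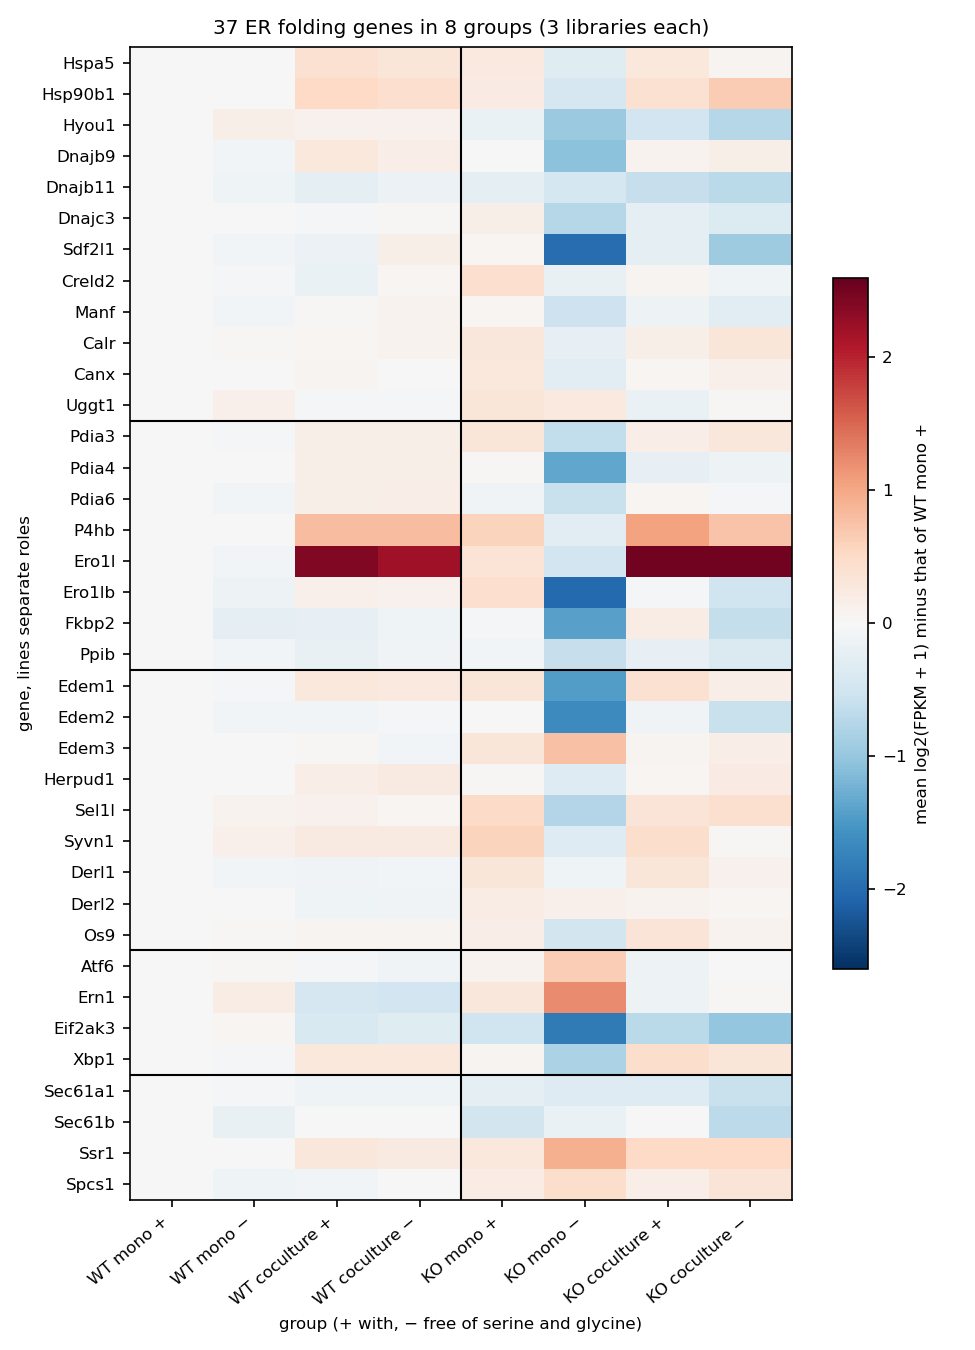
Mean log2(FPKM + 1) of each of the 37 members (rows, separated by role) in the 8 groups (columns, 3 libraries each; + replete and − SG-free medium), minus that of the WT monocultures in replete medium. The KO mono − column is below the reference for 30 members and above it for 7, from 0.13 (Derl2) to 1.24 (Ern1), the others being Uggt1, Edem3, Atf6, Ssr1 and Spcs1, and the Ero1l row is red in all 4 coculture columns.

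For 24 of the 37 members (64.86%) all 3 libraries of SG-free KO monoculture were below each of the other 21 libraries, as they were for 21.04% of the genes tested. For 4 members, Edem3, Atf6, Ern1 and Ssr1, they were above all 21 others (10.81%, in contrast to 23.47% of the genes tested). The members together summed to 7416 ± 522 FPKM (SD) in KO monocultures in replete medium and to 4599 ± 134 FPKM in SG-free medium. As a share of all reads assigned to genes this was 2.732 ± 0.1943% and 1.743 ± 0.06391%. In WT monocultures the sums were 6329 ± 46.2 and 6283 ± 91.7 FPKM.

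Among the chaperones 11 of 12 fell in KO monocultures on withdrawal and Uggt1, the glucosyltransferase that marks unfolded glycoproteins, did not pass the test (−0.07, adjusted p = 0.437). Hspa5, the Hsp70 chaperone of the ER lumen, was at 1765, 1454 and 1449 FPKM in the 3 KO libraries in replete medium and at 1147, 996 and 1004 FPKM in the SG-free ones. The groups did not overlap (nor did they for 67.2% of all tested genes), replicate 1 was the highest of its group in each, and the change was −0.57 ± 0.07 (adjusted p = 7.21e-07). In WT monocultures Hspa5 was at 1301, 1307 and 1280 FPKM in replete and at 1301, 1328 and 1296 FPKM in SG-free medium, which overlapped (27.8% of all genes did not).

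Sdf2l1, a partner of the ER's J proteins, fell most among the chaperones. Its level was 222.1, 310.7 and 288.3 FPKM in replete medium and 52.64, 76.36 and 70.9 FPKM in SG-free medium, a ratio of 0.2435 (−2.03 ± 0.13, adjusted p = 3.081e-11). Replicate 1 was the lowest library of both groups. Dnajb9, the cochaperone that represses Ire1, fell from 75.24, 49.65 and 48.31 FPKM to 29.98, 25.7 and 24.74 FPKM (−1.05 ± 0.14, adjusted p = 1.217e-06). Dnajc3, a J protein and Perk inhibitor, changed by −0.90 and Hyou1, the nucleotide exchange factor of Hspa5, by −0.79. Hsp90b1 (Grp94), the Hsp90 of the ER, changed by −0.64, and the secreted factors Creld2 and Manf by −0.62 and −0.58. Calnexin (Canx) and calreticulin (Calr), the lectin chaperones, changed by −0.55 and −0.52, and Dnajb11 by −0.23. With quantile normalization the Calr change was −0.11 and lost its call (adjusted p = 0.09436).

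All 8 disulfide and proline isomerases and oxidases fell. Ero1lb, an oxidase that recharges protein disulfide isomerase, had the largest change of any member. It was at 14.68, 12.22 and 12.97 FPKM in replete and 1.634, 1.546 and 1.649 FPKM in SG-free medium in KO monocultures, and the 3 libraries of each group lay close together (ratio 0.1211, −2.45 ± 0.09, adjusted p = 7.405e-15). Pdia4 (ERp72) was at 366.6, 310.9 and 315.4 FPKM in replete and 127.4, 125.6 and 122.5 FPKM in SG-free medium (−1.39 ± 0.06, adjusted p = 3.317e-14). The WT libraries of monoculture were all between 310.6 and 329.5 FPKM for Pdia4, above every library of SG-free KO monoculture. Pdia3 (ERp57), which works with calnexin and calreticulin, changed by −0.96, P4hb (protein disulfide isomerase itself) by −0.88 and Ero1l, the other oxidase, by −0.87. The prolyl isomerases Fkbp2 and Ppib changed by −1.38 and −0.52, and Pdia6 by −0.50.

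In ER-associated degradation 7 of 9 members fell and 1 rose. Edem1, a lectin that takes mannose-trimmed glycoproteins out of the folding cycle, was at 49.28, 40.55 and 40.59 FPKM in replete and at 12.95, 11.19 and 12.1 FPKM in SG-free medium in KO monocultures (−1.76 ± 0.07, adjusted p = 2.776e-14). Its relative Edem2, which makes the first mannose cut, went from 12.26, 12.57 and 12.17 FPKM to 3.204, 3.3 and 3.277 FPKM (−1.65 ± 0.08, adjusted p = 1.098e-12). The third relative, Edem3, moved the other way, from 15.84, 11.14 and 11.89 FPKM to 20, 16.52 and 17.63 FPKM (0.46 ± 0.10, adjusted p = 0.0003154). Edem1 and Edem2 were lower, and Edem3 higher, in every SG-free KO monoculture than in any replete one. Sel1l, the scaffold of the Hrd1 ligase, changed by −1.25 and the ligase itself (Syvn1) by −0.92. Os9, a lectin of the same complex, changed by −0.66, Derl1, a channel component, by −0.41 and Herpud1 by −0.38. Derl2 did not pass the test (−0.06, adjusted p = 0.2491).

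The 3 sensors did not move together. Ern1 (Ire1) rose from 19.52, 16.98 and 17.54 FPKM to 35.31, 35.43 and 35.81 FPKM (0.94 ± 0.06, adjusted p = 5.208e-11). Atf6 rose from 44.53, 35.86 and 37.15 FPKM to 62.1, 54.29 and 55.52 FPKM (0.54 ± 0.07, adjusted p = 1.249e-06). Eif2ak3 (Perk) fell from 3.67, 4.369 and 5.146 FPKM to 1.039, 1.112 and 1.29 FPKM (−1.32 ± 0.08, adjusted p = 1.312e-11). None of the 3 pairs of groups overlapped, as for 67.2% of all tested genes. Xbp1, whose mRNA Ire1 splices, fell from 78.85, 73.96 and 75.46 FPKM to 40.35, 41.74 and 39.88 FPKM (−0.89 ± 0.04, adjusted p = 1.219e-12). The transcripts of 2 sensors were higher and those of the remaining sensor and of Xbp1 were lower in the same libraries.

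Of the 4 members at the entry to the ER 2 rose and 1 fell. Ssr1, a subunit of the translocon-associated protein complex, rose from 22.45, 22.35 and 22.45 FPKM to 38.63, 34.4 and 34.76 FPKM (0.66 ± 0.04, adjusted p = 2.691e-11). Spcs1, of the signal peptidase, changed by 0.26 ± 0.08 (adjusted p = 0.008262), a call lost in 3 of 33 alternative settings, among them without replicate 2 of the SG-free KO monocultures (adjusted p up to 0.3548). Sec61a1, the channel itself, changed by −0.08 ± 0.04 (adjusted p = 0.04819), next to the threshold; the call was lost in 24 of 33 alternative settings, with adjusted p up to 0.3994. Sec61b was at 17.3, 41.65 and 38.12 FPKM in replete and 36.35, 40.78 and 37.09 FPKM in SG-free medium, where 1 library made the spread of the first group, and the change did not pass the test (0.32 ± 0.23, adjusted p = 0.2267).

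**Figure D2:**
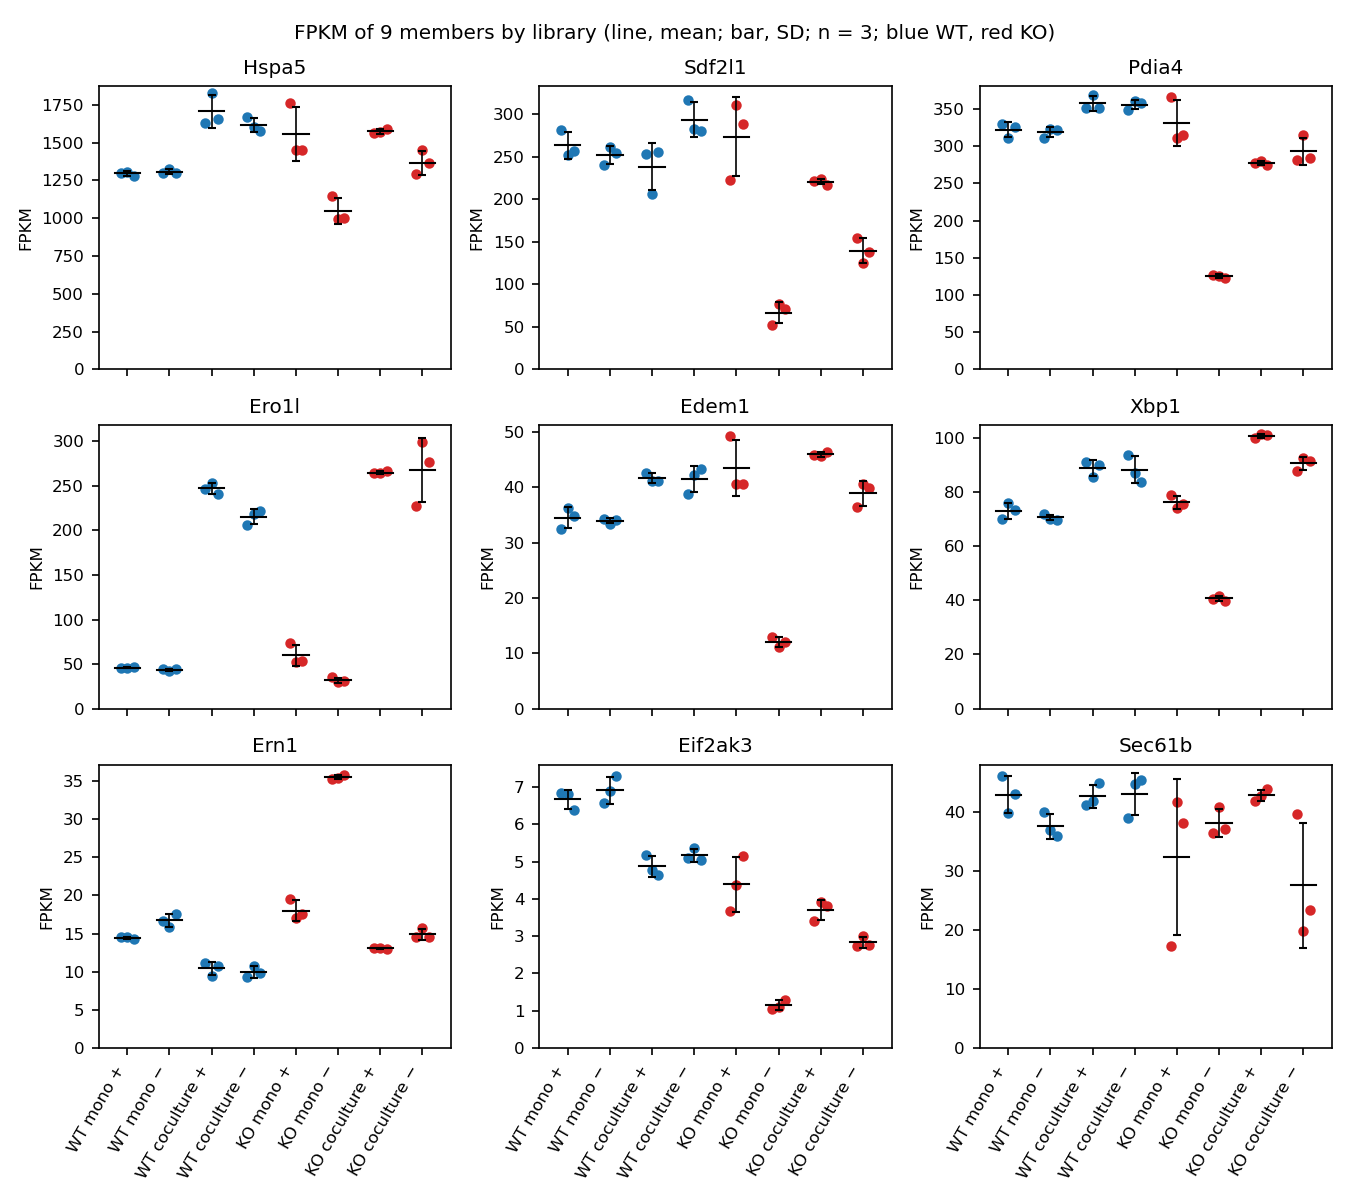
FPKM of 9 members in each library (points) with the group mean (line) and SD (bar, n = 3), WT in blue and KO in red; the axes start at 0. The SG-free KO monocultures are the lowest group for Hspa5, Sdf2l1, Pdia4, Ero1l, Edem1, Xbp1 and Eif2ak3 and the highest for Ern1, and single libraries spread Sec61b widely in 2 KO groups.

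In coculture the same withdrawal left a smaller difference in KO cells. Of 37 members 16 were lower and 4 higher in SG-free medium, 20 in all, where 29.9% of all genes were called, 14.4% lower and 15.5% higher, and the median was −0.11. In WT cocultures 0 members were called by limma (0.738% of all genes, 0.439% higher and 0.298% lower, and 1143 genes at an unadjusted p under 0.05). Sdf2l1 fell from 221.2, 223.2 and 217.3 FPKM to 154.3, 124.9 and 138.3 FPKM (−0.67 ± 0.13, adjusted p = 0.0007211). Edem2 (−0.48 ± 0.08), Fkbp2 (−0.80 ± 0.19), Hyou1 (−0.23 ± 0.05), Eif2ak3 (−0.30 ± 0.08) and Sec61a1 (−0.22 ± 0.04) also fell, and with Sdf2l1 they are the 6 of 20 calls kept in every alternative setting. Calr (0.17), Herpud1 (0.17), Uggt1 (0.21) and Ern1 (0.18) rose. The count moved in both directions with the libraries used. It was 13 without any 1 library of the KO cocultures in replete medium, and 12 without replicate 3 of the SG-free KO cocultures. It was 9 when only the groups compared entered the fit, where 1820 of all genes were called in place of 3607. It was 26 (7 higher, 19 lower) without replicate 1 of both KO monoculture groups (5038 of all genes). It was 29 (10 higher, 19 lower) without replicate 1 of both the replete KO monocultures and the SG-free KO cocultures (5763 of all genes).

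The difference between the withdrawal effects in KO coculture and KO monoculture was called for 32 members (background 57.7%, 27.9% positive and 29.8% negative), 26 of them positive and 6 negative, with a median of 0.54. It was largest for Ero1lb (1.96 ± 0.12, adjusted p = 1.255e-10), Edem1 (1.53 ± 0.10), Pdia4 (1.47 ± 0.08), Sdf2l1 (1.36 ± 0.18) and Sel1l (1.32 ± 0.10), and it was negative for Ern1 (−0.77 ± 0.09) and Ssr1 (−0.65 ± 0.06). For Sec61b it was −0.9976 ± 0.33 (adjusted p = 0.0141), −0.6115 without replicate 1 of the KO monocultures in replete medium, and −0.413 and not called (adjusted p = 0.07423) when replicate 2 of the SG-free KO cocultures was left out as well. For Calr, which fell in monoculture and rose in coculture, the difference was 0.69 ± 0.06 (adjusted p = 2.237e-08). For Herpud1, a membrane protein of the degradation complex that did likewise, it was 0.54 ± 0.07 (adjusted p = 8.842e-07). Both coculture rises lost their call when only the groups compared entered the fit (adjusted p = 0.08862 for Calr and 0.07715 for Herpud1), for Calr also without replicate 2 (0.05223) and for Herpud1 without replicate 3 (0.05799) of the SG-free KO cocultures. Within coculture the genotypes differed in their response in 10 members (background 14.4%, 8.06% positive and 6.38% negative), all of them negative: Hyou1, Dnajb11, Sdf2l1, Creld2, P4hb, Ero1lb, Fkbp2, Edem2, Eif2ak3 and Sec61a1. That count was 17 without replicate 1 of the KO monocultures in replete medium and 6 without replicate 2 of the replete KO cocultures. Every alternative setting kept 3 of the 10 calls, and quantile normalization gave 8 calls, 6 of them negative and 2 positive. Without replicate 1 of both the replete KO monocultures and the SG-free KO cocultures the count was 26, 16 of them negative and 10 positive. In that fit 4733 of the 12061 tested genes were called, 2380 positive and 2353 negative, in place of 1742.

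**Figure D3:**
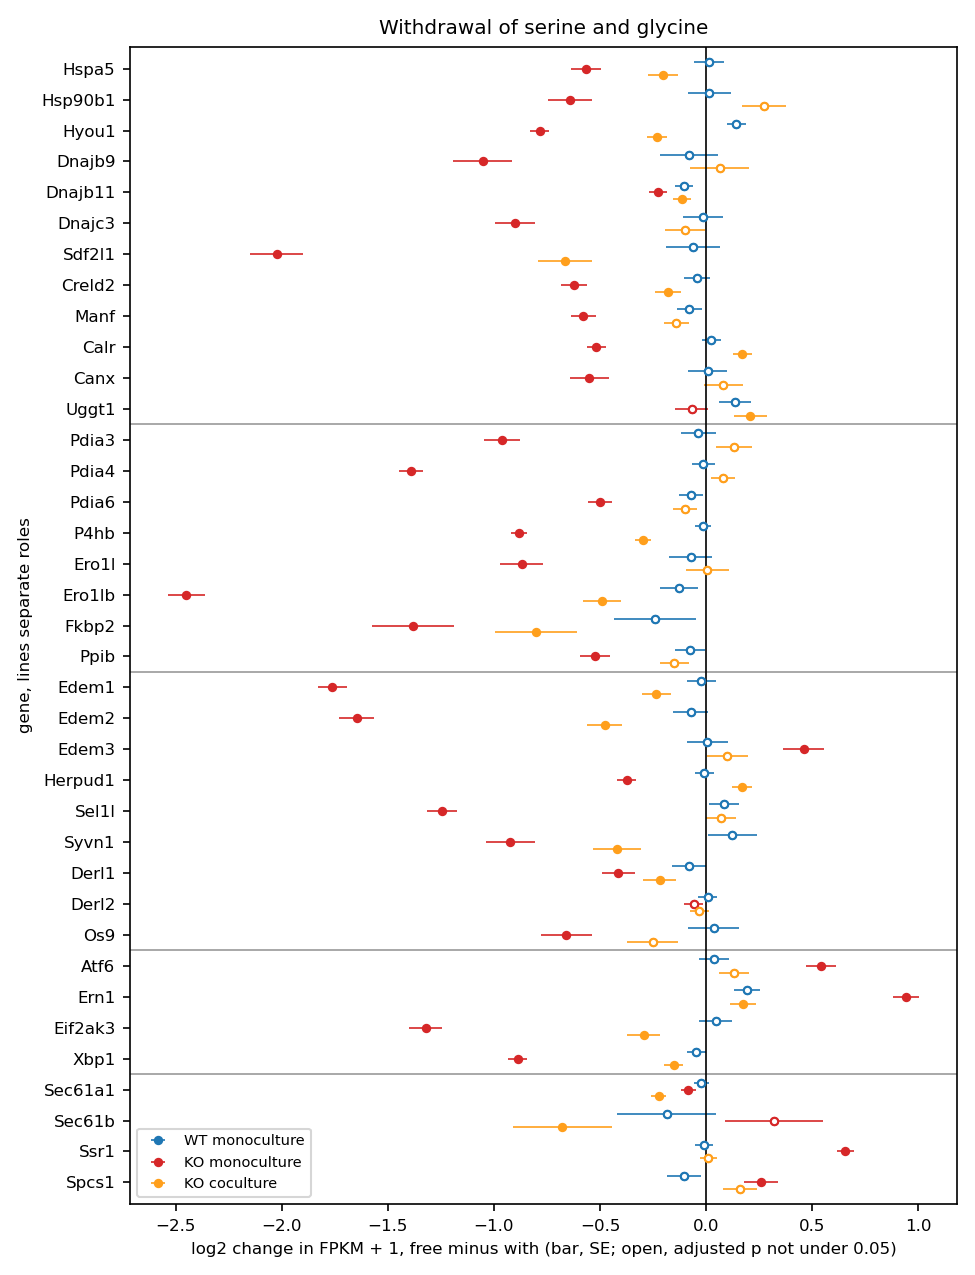
Log2 change of each member on withdrawal in WT monoculture, KO monoculture and KO coculture, with SE; open points did not pass an adjusted p of 0.05. The KO monoculture points reach −2.45 (Ero1lb) and 0.94 (Ern1), and the WT points stay between −0.24 and 0.19.

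Coculture with hepatocytes was compared with monoculture at each genotype and medium. In KO cells in SG-free medium 26 of the 37 members were higher in coculture and 7 lower, 33 in all, where 71.3% of all genes were called, 35% higher and 36.3% lower. Their median change was 0.40. This comparison shares the SG-free KO monocultures with the withdrawal comparison, so its values are given for the members and not as a separate line of evidence. In WT cells 16 members were called in replete medium (10 higher, 6 lower; background 31.2%, 16.3% higher and 14.9% lower) and 14 in SG-free medium (12 higher, 2 lower; background 28.1%, 14.9% higher and 13.1% lower). In KO cells in replete medium 4 were higher and 12 lower (background 40%, 20.1% higher and 19.9% lower), with a median of −0.13. Quantile normalization gave 6 higher and 6 lower, 6 higher and 8 lower, and 4 higher and 21 lower in these 3 comparisons. Over all genes it gave 1815 higher and 2109 lower, 1619 and 1911, and 2125 and 2912, in the same order. The main fit had 1969 higher and 1794 lower, 1800 and 1586, and 2429 and 2395. The balance of directions in the 2 WT comparisons thus rests on the scaling. The lean to lower levels in KO cells was kept, but this scaling moved the balance over all genes toward lower levels as well. Without replicate 1 of the WT monocultures in replete medium, 10 members in place of 16 were called in the first.

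Ero1l was the member that changed most in coculture. In WT cells in replete medium it was at 45.24, 46.08 and 46.3 FPKM in monoculture and at 246.9, 253.8 and 240.9 FPKM in coculture, 5.389 times as high (2.40 ± 0.10, adjusted p = 3.288e-13). In WT cells in SG-free medium it was at 44.29, 42.05 and 44.32 FPKM and at 205.6, 218.3 and 221.7 FPKM (2.28 ± 0.10, adjusted p = 8.08e-13). In KO cells the corresponding values were 73.39, 52.71 and 53.69 against 264.5, 264.1 and 266.4 FPKM in replete medium (2.14 ± 0.10, adjusted p = 1.81e-12). They were 35.03, 29.7 and 31.42 against 227.8, 299 and 276.6 FPKM in SG-free medium (3.02 ± 0.10, adjusted p = 1.928e-15). Every coculture library was above every monoculture library for this gene. For single comparisons, 51.3%, 51%, 47% and 69.6% of all genes had no overlap, in the same order.

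P4hb, the substrate that Ero1l oxidises, also rose in all 4 comparisons. Its levels in WT cells in replete medium were 400.4, 397.7 and 395 FPKM in monoculture and 698.3, 692.8 and 705.6 FPKM in coculture, which did not overlap. The 4 changes were 0.81, 0.82, 0.46 and 1.05 in the order WT replete, WT SG-free, KO replete and KO SG-free, each with an SE of 0.04 and an adjusted p no higher than 1.086e-08. Xbp1 rose by 0.28, 0.32, 0.40 and 1.14 in the same order. Ern1 fell in all 4, by 0.44, 0.69, 0.43 and 1.20. In WT cells in replete medium Ern1 was at 14.59, 14.5 and 14.34 FPKM alone and at 11.09, 9.495 and 10.73 FPKM in coculture, without overlap.

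Other members rose with coculture in KO cells in SG-free medium from the low levels described above. Edem1 was at 36.4, 40.63 and 39.81 FPKM in coculture (1.61 ± 0.07, adjusted p = 9.114e-14), 3.224 times its monoculture mean. Pdia4 was at 281.1, 314.3 and 283.9 FPKM (1.22 ± 0.06, adjusted p = 2.072e-13). Both were clear of the monoculture libraries. Ero1lb was at 5.114, 7.65 and 6.624 FPKM (1.50 ± 0.09), and Eif2ak3 at 2.742, 2.999 and 2.762 FPKM (0.84 ± 0.08); both were above the monoculture libraries and below every KO library in replete medium. Hsp90b1 changed by 1.09, Dnajb9 by 1.22, Sel1l by 1.16, Edem2 by 1.08 and Sdf2l1 by 1.06. Hspa5 changed by 0.38 ± 0.07 (adjusted p = 8.075e-05), and by 0.11 with quantile normalization, where it was not called (adjusted p = 0.1558). Among those that fell were Atf6 (−0.63), Edem3 (−0.60) and Ssr1 (−0.41), and Sec61b did not pass the test (−0.51, adjusted p = 0.05592).

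The genotypes differed in how the set answered coculture in replete medium, in 6 members (background 10.4%, 4.98% positive and 5.39% negative), all of them more negative in KO cells: Hspa5, Hyou1, Uggt1, Pdia4, P4hb and Ero1lb. For Pdia4 the coculture change was 0.15 in WT and −0.25 in KO cells (difference −0.40 ± 0.08, adjusted p = 0.002462). Its WT rise was next to the threshold (adjusted p = 0.0455), and the difference was called in all 33 alternative settings (adjusted p up to 0.02839). Without replicate 2 of the KO monocultures in replete medium 11 members were called in place of 6.

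**Figure D4:**
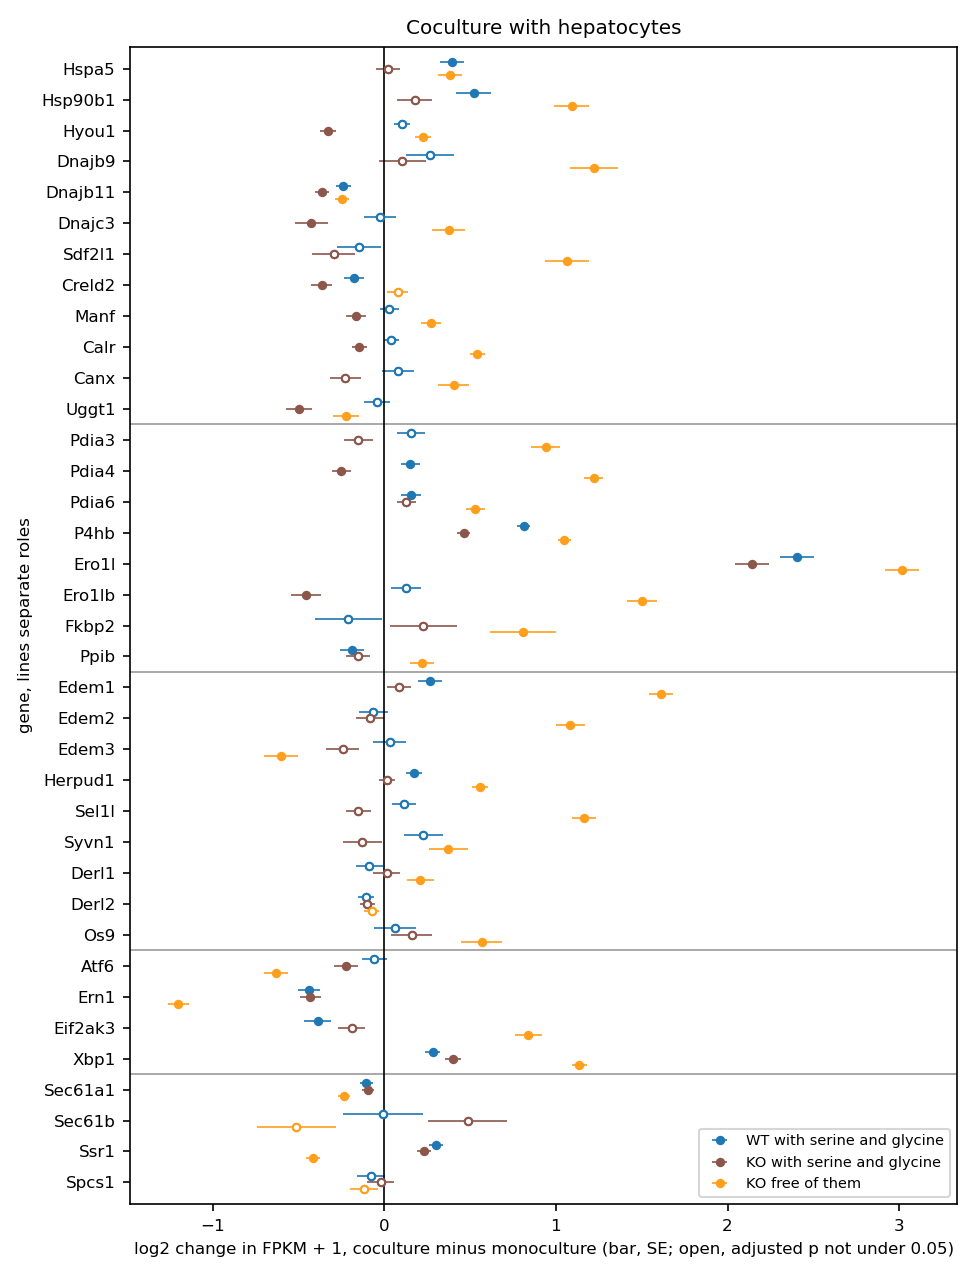
Log2 change of each member in coculture over monoculture, in WT and KO cells in replete medium and in KO cells in SG-free medium, with SE; open points did not pass an adjusted p of 0.05. Ero1l lies between 2.14 and 3.02 in all 3, and the points of the KO cells in SG-free medium reach 1.61 for Edem1 and −1.20 for Ern1.

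Between the genotypes at one condition, the direction of the set depended on the medium in monoculture. In replete medium 17 members were higher in KO and 4 lower, 21 in all (background 42.7%, 21.5% of all genes higher and 21.1% lower), with a median difference of 0.19. In SG-free medium 28 were lower and 6 higher (background 73.6%, 37.4% higher and 36.3% lower), with a median of −0.45. P4hb, for example, was at 400.4, 397.7 and 395 FPKM in WT and at 624.3, 587.1 and 578 FPKM in KO monocultures in replete medium (0.58 ± 0.04, adjusted p = 4.029e-10), and was lower in KO cells in SG-free medium (−0.29 ± 0.04, adjusted p = 1.255e-06; no overlap, as for 78.6% of all genes). Sel1l (0.49), Syvn1 (0.59) and Creld2 (0.43) were likewise higher in KO cells in replete medium and lower in SG-free medium. When only the WT and KO monocultures in replete medium entered the fit, 11 members in place of 21 were called. Of these 8 were higher in KO cells and 3 lower. Over all 12061 genes that fit called 3165 in place of 5145, 1578 of them higher and 1587 lower. Calr was lower in KO monocultures in SG-free medium (−0.24, adjusted p = 6.436e-05) but higher with quantile normalization (0.14, adjusted p = 0.0338), so its direction there rests on the scaling, and Hspa5 (−0.32) lost its call with it (−0.09, adjusted p = 0.2343).

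In cocultures in replete medium 9 members were higher in KO cells and 8 lower (background 43.9%, 21.8% higher and 22% lower), and in SG-free medium 7 were higher and 16 lower (background 53.6%, 26.3% higher and 27.4% lower). In replete medium the count was 26 when only the groups compared entered the fit, and likewise without replicate 1 of both the replete KO monocultures and the SG-free KO cocultures. Over all genes 6272 and 6352 were called in these settings, in that order, in place of 5291. Ern1, Ssr1 and Derl2 were called higher in KO cells in all 4 conditions, and Hyou1, Dnajb11, Eif2ak3 and Sec61a1 lower in all 4. The share of all tested genes called alike in all 4 was not counted, so this pattern has no background beside it. Eif2ak3 was at 6.832, 6.808 and 6.379 FPKM in WT and 3.67, 4.369 and 5.146 FPKM in KO monocultures in replete medium, which did not overlap, as for 48.1% of all genes (−0.52 ± 0.08, adjusted p = 2.523e-05). In the other 3 conditions, in the order monoculture in SG-free medium, replete coculture and SG-free coculture, its difference was −1.88, −0.32 and −0.69. Hyou1 differed by −0.18, −1.11, −0.61 and −0.85 over the 4 conditions, beginning with monoculture in replete medium, and Ssr1 by 0.28, 0.94, 0.21 and 0.29. Derl2, a relative of Derl1, differed by 0.19, 0.12, 0.20 and 0.16 in the same order.

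Members with and without the elements printed above both fell. In KO monocultures on withdrawal all 11 members with ERSE or ERSE-II in their window fell (median −0.57, from −2.45 to −0.23). Of the 21 with a window and neither element 14 fell and 4 rose (median −0.88, from −2.03 to 0.94). The 4 that rose, Edem3, Ern1, Ssr1 and Spcs1, are in the second group, as are Sdf2l1, Edem1, Edem2 and Pdia4, which fell by more than 10 of the 11 with an element. No test was made of this split. Other tested genes with an ERSE or ERSE-II moved both ways in the same comparison. Derl3, a relative of Derl1, went from 11.46 to 0.3723 FPKM (−3.15 ± 0.16, adjusted p = 1.16e-12). Zfp57 (−2.402), Nucb1 (−1.06), Rbm39 (−0.3965), Krtcap2 (−0.2323) and Rcl1 (−0.1423) were also called lower. Lrif1 (0.9968), Alg12 (0.44) and Hnrnpa3 (0.346) were called higher, and Pan2, Lgalsl and Gm46430 did not pass the test. Over all tested genes 34.5% were called lower and 36.2% higher.

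**Figure D5:**
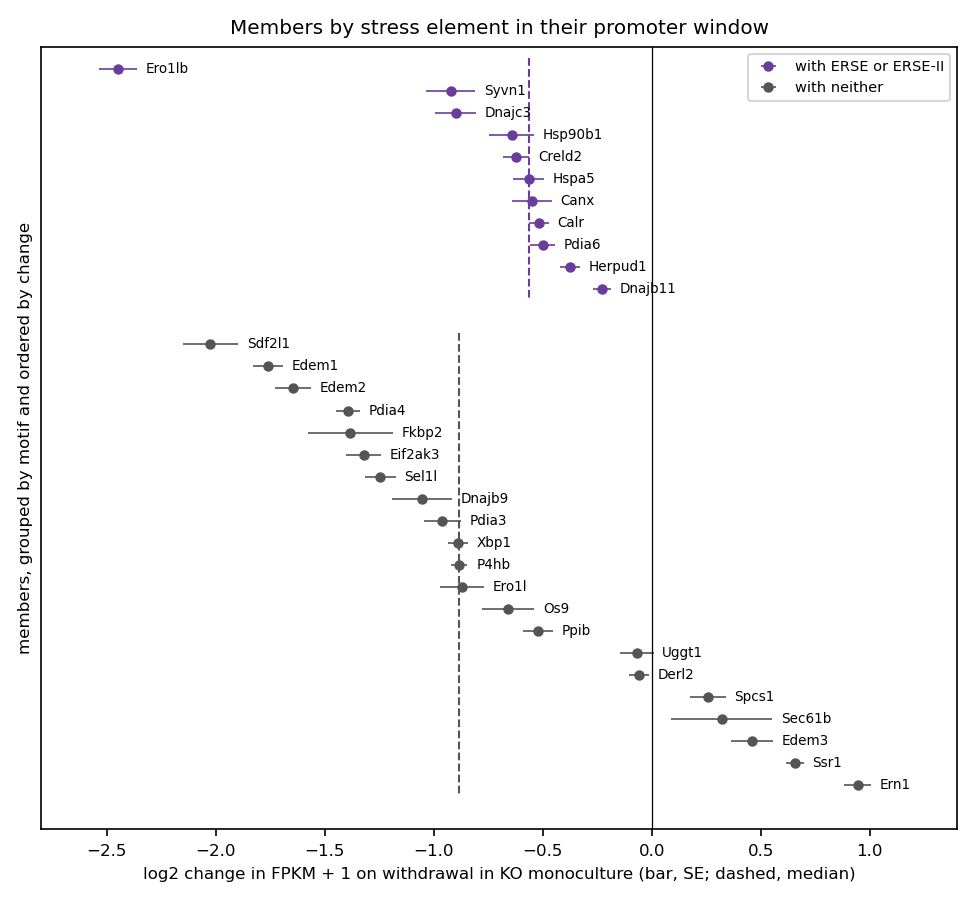
Log2 change of each member with a promoter window on withdrawal in KO monoculture, with SE, grouped by whether the window holds ERSE or ERSE-II (purple, 11 members) or neither (grey, 21 members); dashed lines are medians. All 11 purple points are below 0, and the grey points spread from −2.03 to 0.94.

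The other genes of the pathway came from 7 lists that hold none of the members. Of 126 tested genes 56 rose and 56 fell on withdrawal in KO monocultures, with a median of −0.07, against 36.2% higher and 34.5% lower over all tested genes, which is the background for each list below. In the Perk arm and integrated stress response, by which eIF2α kinases slow translation and raise Atf4 targets, 14 of 19 rose and 4 fell (median 0.54). Atf5, a transcription factor of that arm, rose from a mean of 103.9 to 377.2 FPKM (1.97 ± 0.28) and the pseudokinase Trib3 from 100.7 to 241.3 FPKM (1.29 ± 0.15), whereas Ddit4 (−1.30) and Eif2ak1 (−0.56) fell. In coculture 13 of these 19 were lower than in monoculture in KO cells in SG-free medium, among them Atf5 (−1.59) and Ppp1r15a (−1.55), and 2 higher, where 36.3% of all genes were lower and 35% higher.

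Of 28 other chaperones and folding enzymes 15 fell and 10 rose on that withdrawal (median −0.36). Fkbp11, a prolyl isomerase of secretory cells, went from 10.64 to 0.8388 FPKM (−2.66 ± 0.09) and Pdia5 from 13.75 to 3.656 FPKM (−1.66 ± 0.09), while Txndc12 (0.95) and Tmx2 (0.73), of the thioredoxin family, rose. Of 19 genes of N-glycosylation 11 fell and 5 rose, with Ostc (−1.25) and Prkcsh (−0.85) among the falls and Dad1 (1.37) among the rises. Of 17 other genes of the translocon and signal recognition 11 fell and 2 rose, and the largest falls were of Ssr4 (−1.42) and Spcs3 (−1.20), which stand in the same complexes as the members Ssr1 and Spcs1 that rose.

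The remaining lists leaned the other way or were divided. Of 20 other genes of ER-associated degradation 12 rose and 7 fell (median 0.41), with Ube2g2 (1.43), a ubiquitin-conjugating enzyme, at one end and Derl3 (−3.15) and Rnf5 (−1.37) at the other. Of 8 genes of Atf6 processing and related factors 5 rose and 3 fell. The transcription factor Creb3 changed by 1.47 and Mbtps1, the first protease to cut Atf6, by −0.69. Of 15 genes of COPII vesicles, which carry folded cargo out of the ER, 8 rose and 5 fell.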

How the data were processed

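RNA was sequenced from 24 libraries. The authors deposited FPKM values for 54532 genes; alignment used HISAT2 on GRCm38/mm10, per the submitters' processing notes, while the counter, annotation, strand setting and HISAT2 version were not given in the sources used here. Low FPKM values were whole multiples of 1 read (100% within 0.05 read), which gave totals of 15740081 to 23479425 reads per library. The library size used in the FPKM scaling was not that total itself. It was from 0.9687 (a replete KO coculture) to 1.068 (an SG-free WT monoculture) times the total and differed between groups. What set this factor was not tested.

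Genes at 1 FPKM or more in 3 or more libraries were kept (12061). Values were tested as log2(FPKM + 1), which understates changes of low genes, with limma 3.58.1 in R 4.3.3: 8 group means, mean-variance trend, 16 residual degrees of freedom, Benjamini-Hochberg adjustment over all genes kept and a threshold of 0.05. Python 3.11.15 and pandas 2.3.3 made the summaries. The fit was tested on simulated data. The labels number replicates without saying that they are separate cultures, so the p-values rest on a spread among libraries that could be technical.

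The members and lists were chosen with earlier results of these data known. Every member could be named; from each pathway list, the 2 largest called rises and falls (1 such gene is not reported here), and of the marker lists the genes of highest mean. Members were matched to RefSeq by Ensembl identifier or symbol, and by synonym where neither gave a window. Alternatives were another pseudocount (0.1), no filter, quantile normalization, voom on recovered reads, only the groups compared, a replicate block, each library left out, and 3 pairs of libraries left out, 2 of the pairs chosen after seeing the data.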

Additional observations from a re-analysis of the deposited data

Results flagged for a closer look

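The response to withdrawal differed between genotypes in monoculture, by limma's interaction term, for 32 of 37 members (61.2% of all tested genes), and in coculture for 10 (14.4%). Within KO cells it differed between coculture and monoculture for 32 members (57.7%). Among these, Calr and Herpud1 were lower on withdrawal in monoculture and higher in coculture, and the differences were 0.69 and 0.54 on the log2 scale. Both rises in coculture lost their call when only the groups compared entered the fit (adjusted p = 0.08862 and 0.07715), and the Calr fall in monoculture with quantile normalization (adjusted p = 0.09436). The response to coculture in replete medium differed between genotypes for 6 members (10.4%), among them Pdia4, higher in WT and lower in KO cells (difference −0.40).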

How the results depend on the processing

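Quantile normalization reversed 7 values: Calr in KO against WT in SG-free monoculture (0.1386), Calr, Pdia4 and Pdia6 in coculture of WT cells in SG-free medium (−0.1704, −0.07054 and −0.02496), Pdia6 in coculture of WT cells in replete medium (−0.002499), Herpud1 in coculture of KO cells in replete medium (−0.1647), and Sec61a1 in the coculture by withdrawal difference in KO cells (0.09354). It also gave 25 members called for coculture of KO cells in replete medium (16), 1 for withdrawal in WT monoculture (0), and splits of 6 higher and 11 lower for withdrawal in KO coculture. With only the groups compared in the fit, members called were 11 (21) and 26 (17) for KO against WT in replete medium in monoculture and coculture, 1 (0) for withdrawal in WT monoculture and 9 (20) in KO coculture. Without replicate 1 of both KO monoculture groups, 1 was called for withdrawal in WT monoculture, 1 in WT coculture, and 18 (10) for genotype by withdrawal in coculture. Without the other pair, replicate 1 of the replete KO monocultures and replicate 2 of the SG-free KO cocultures, chosen after seeing the data, 2 were called for withdrawal in WT monoculture and 33 (34) in KO monoculture. Leaving out 1 library at a time gave 0 to 1 for withdrawal in WT monoculture and 0 to 1 in WT coculture, 12 to 23 in KO coculture, 10 to 20 for coculture of WT cells in replete medium, 6 to 17 for genotype by withdrawal in coculture and 5 to 11 for genotype by coculture in replete medium; for withdrawal in KO monoculture it gave 32 to 34. Without replicate 1 of both the replete KO monocultures and the SG-free KO cocultures, also chosen after seeing the data, 26 (17) were called for KO against WT in replete coculture, 26 (10) for genotype by withdrawal in coculture and 1 for withdrawal in WT monoculture and 1 in WT coculture, and Dnajb9 in KO against WT in SG-free coculture reversed (0.1636). The cause of these shifts was not tested. Over all genes, fitting only the groups compared gave 3165 calls (5145) for KO against WT in replete monoculture and 1820 (3607) for withdrawal in KO coculture. Over all genes, the fit without replicate 1 of both the replete KO monocultures and the SG-free KO cocultures moved as well. It gave 4733 calls (1742) for genotype by withdrawal in coculture and 6352 (5291) for KO against WT in replete coculture. Replicate numbers did not pair the libraries: of 84 same-numbered pairs 9 had a correlation of deviations over 0.1 (from −0.628 to 0.401), and 5 of 24 libraries correlated best with their own number. With the number as a replicate block 33 members in place of 34 were called for withdrawal in KO monoculture and 16 in place of 20 in KO coculture.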
